A study of Mus musculus with 3 samples.

Results

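The genes described here encode the neuronal cytoskeleton and were taken from a list of 10 symbols: the neurofilament genes Nefl, Nefm, Nefh and Ina, the microtubule-associated protein (MAP) genes Map1a, Map1b, Map2 and Mapt, and the stathmin genes Stmn2 and Stmn3. All 10 matched 1 identifier each among the 36809 gene identifiers found in all 3 deposited tables, of which 20147 are protein-coding. The study measured polyadenylated RNA from brain, whole testis and liver of male C57BL/6 mice aged 11 weeks, with strand-specific libraries, 1 for each organ. The labels give no genotype or treatment, and do not say how many animals went into a library. The series title asks about the complexity of the testis transcriptome, so brain and liver stand as the somatic organs beside testis. With 1 library per organ there is no replicate check, and organs are compared by size alone, without p-values.

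Neurofilaments are the intermediate filaments of axons, built from light, medium and heavy chains together with alpha-internexin, and they set the calibre of large myelinated axons. MAPs bind the microtubule lattice and stabilise it, with MAP2 found mainly in dendrites and tau, the product of Mapt, mainly in axons. Stathmins act the other way: they bind free tubulin dimers and promote the shrinkage of microtubules, and the products of Stmn2 and Stmn3 are membrane-anchored forms known from neurons. In whole organs such as these, fewer cells of a type and less RNA per cell cannot be told apart.

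Levels are the authors' FPKM (fragments scaled to transcript length and to the number of mapped fragments) with their lower and upper confidence bounds, so levels of different genes can be set side by side per length. The bounds cover estimation within a library and not the spread between animals. The library labels were checked on marker genes. Neuron markers summed to 1790 FPKM in brain, against 7.0 in testis and 0.992 in liver over 6 genes. Germ cell markers summed to 28.4, 33486 and 0.234 FPKM over 4 genes in the same organs, and hepatocyte markers to 6.20, 5.82 and 33754 over 4 genes. The germ cell markers in brain thus stood above 0, with Tnp1 at 13.5 FPKM, or 0.0940% of its testis level. Their part in the results on the 10 genes was not tested.

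All 10 genes were abundant in brain, between 32.4 FPKM for Nefh and 286 FPKM for Stmn3, and each ranked above 91.2% or more of protein-coding genes there. Only Map1b and Map2 were listed at 1 FPKM or more in testis, and no member was in liver. The liver estimates of Ina and Mapt were marked as failed, and the upper bound of Mapt there was 3.33 FPKM. Together the 10 genes summed to 1001 FPKM in brain, against 37.3 in testis and 0.839 in liver. That was 0.290% of all protein-coding FPKM for brain, 0.00657% in testis and 0.000137% in liver. Map2 alone made up 87.2% of the testis sum, and the failed estimate of Mapt 43.5% of the liver sum.

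**Figure D1:**
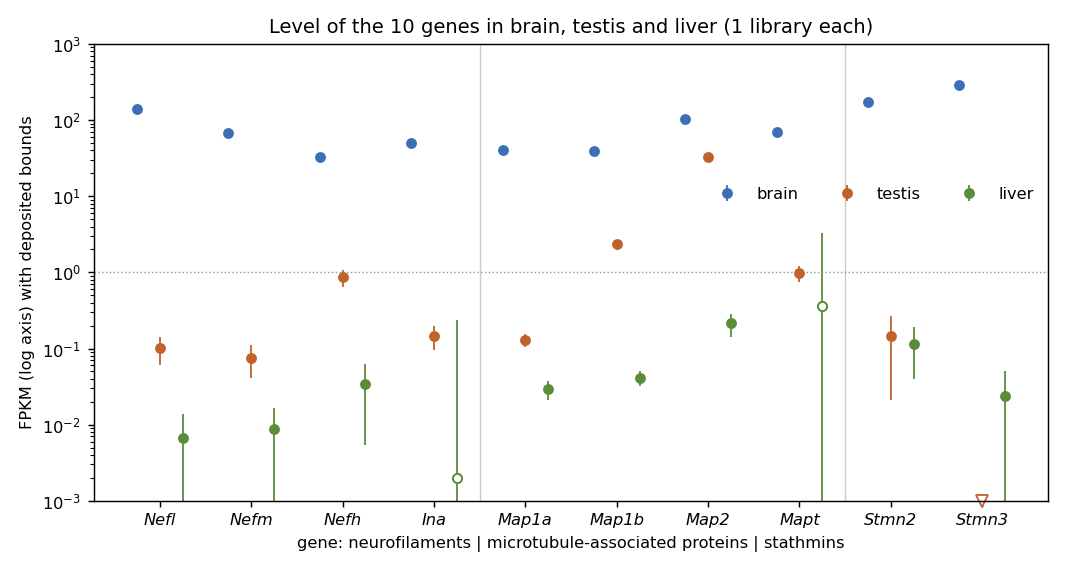
FPKM on a log axis for the 10 genes in brain (left of each trio), testis and liver, with the deposited lower and upper bounds as bars; 1 library per organ. Open circles are estimates marked as failed, the open triangle is Stmn3, listed at 0 in testis, bars that meet the lower edge reach a bound under 0.001, and the dotted line is 1 FPKM. All brain points lie at 32.4 FPKM or above, and Map2 at 32.6 FPKM is the one testis point within that range.

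Among the neurofilament genes the light chain gene Nefl, whose product forms the core of the filament, was the highest. It stood at 138 FPKM in brain (bounds 136 to 139), 0.101 in testis (0.0610 to 0.142) and 0.00663 in liver (0 to 0.0138). Nefm, the medium chain, was at 68.0 FPKM in brain (66.9 to 69.0), 0.0756 in testis (0.0406 to 0.111) and 0.00875 in liver (0.000716 to 0.0168). Both genes were thus high in brain alone, with no overlap of bounds between brain and the other organs. Nefh, the heavy chain with a long tail that carries many phosphorylation sites, was at 32.4 FPKM in brain (31.0 to 33.7), 0.868 in testis (0.648 to 1.09) and 0.0341 in liver (0.00546 to 0.0627). Ina, which encodes alpha-internexin, was at 50.6 FPKM in brain (49.7 to 51.5) and 0.146 in testis (0.0967 to 0.196). Its liver value of 0.00202 FPKM was marked as a failed estimate, with an upper bound of 0.240.

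The proportions of the chains differed between the libraries. In brain there were 2.03 Nefl transcripts for each Nefm (bounds 1.97 to 2.08) and 4.25 for each Nefh (4.04 to 4.49) on the FPKM scale, and 2.72 for each Ina (2.64 to 2.80). In testis the order of light and heavy chain was the other way round, with Nefh at 8.56 times Nefl (4.57 to 17.8). Such ratios within a library do not depend on how libraries are scaled. Of the summed FPKM of these 4 genes and Prph, which encodes the related peripheral neuron filament protein peripherin, Nefl held 47.5% in brain and 7.88% in testis, while Nefh held 11.2% in brain and 67.5% in testis. Nefh also held the largest share in liver, 61.6% against 12.0% for Nefl, but the liver bounds of these genes overlapped. The testis and liver shares are imprecise. The bounds in testis were as wide as those of about 62.1 fragments for Nefh and 25.2 for Nefl, against 2317 and 33245 in brain. In liver they were as wide as those of 5.67 and 3.43. These values stand for the width of the bounds and are not read counts, which for Nefh may be higher.

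In brain the MAP genes ran from 39.4 FPKM for Map1b to 103 for Map2, and in testis from 0.130 for Map1a to 32.6 for Map2. Map1a and Map1b encode large paralogous proteins that are each cut into a heavy and a light chain, Map1b being the form typical of growing axons. In brain they were at 40.0 FPKM (39.5 to 40.4) and 39.4 FPKM (39.0 to 39.8), a ratio of 1.01 (0.992 to 1.04) whose bounds include equality. In testis Map1b was at 2.34 FPKM (2.24 to 2.44) and Map1a at 0.130 (0.104 to 0.155), a ratio of 18.0 (14.4 to 23.5). In liver Map1b was at 0.0411 FPKM (0.0318 to 0.0504) and Map1a at 0.0294 (0.0212 to 0.0376). The paralogs were thus level in brain and unequal in testis.

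Map2 was the exception among the 10 genes. It stood at 103 FPKM in brain (102 to 104), 32.6 in testis (31.2 to 33.9) and 0.214 in liver (0.142 to 0.286). Its testis level exceeded that of 86.0% of protein-coding genes, against 97.6% in brain and 44.0% in liver. Mapt was at 70.4 FPKM in brain (67.2 to 73.5) and 0.972 in testis (0.745 to 1.20). Its liver value of 0.365 FPKM was marked as failed, with bounds of 0 and 3.33, so no level below that upper bound can be stated. Map2 was 1.47 times Mapt in brain (1.39 to 1.55) and 33.5 times Mapt in testis (26.0 to 45.5).

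Stmn2 and Stmn3 were the most abundant of the 10 genes in brain. Stmn3 was at 286 FPKM in brain (280 to 291), listed at 0 in testis and at 0.0235 in liver (0 to 0.0512). In brain it ranked 120 among protein-coding genes. Stmn2 was at 174 FPKM in brain (169 to 178), 0.146 in testis (0.0210 to 0.271) and 0.115 in liver (0.0400 to 0.189). Testis and liver bounds overlapped for Stmn2, and neither organ approached the brain level of either gene.

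Read from high to low, the brain levels ran Stmn3, Stmn2, Nefl, Map2, Mapt, Nefm, Ina, Map1a, Map1b and Nefh. Of the 9 neighbouring pairs in this order, Mapt with Nefm and Map1a with Map1b had overlapping bounds, and the other pairs did not. The upper half-width of the bounds was 1.04% of the brain value for Map2 and 4.46% for Mapt, the narrowest and widest of the 10.

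**Figure D2:**
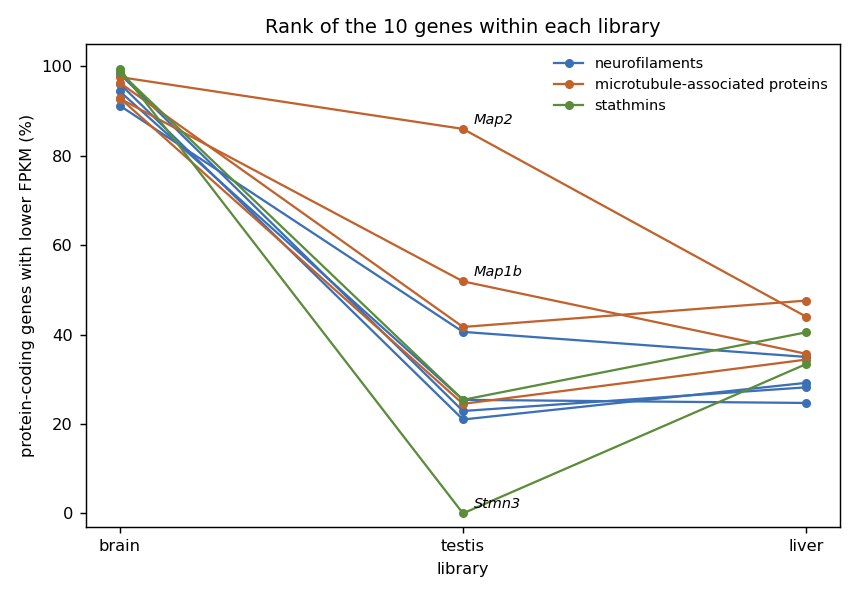
Percent of protein-coding genes with a lower FPKM than each of the 10 genes in brain, testis and liver, 1 line per gene, coloured by class. All lines start at 91.2% or above in brain. In testis Map2 lies at 86.0%, Map1b at 51.9% and Stmn3, listed at 0, at 0%. In liver all lie between 24.7% for Ina and 47.6% for Mapt, both failed estimates, and the others between 28.2% and 44.0%.

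For comparison between organs, differences were taken on the log2(FPKM + 1) scale, which understates those of low genes, and a gene was called where the gap was 4-fold or more and the bounds did not meet. Brain against testis called 9 of the 10 genes higher in brain and none lower. Over all genes 7.19% were called higher in brain, and over protein-coding genes 10.4%. The median log2 difference of the 10 genes was 5.34, from 1.63 to 8.16, beside 0.00 over all genes and over protein-coding genes. By class the medians were 5.75 for the neurofilament genes, 4.39 for the MAP genes and 7.71 for Stmn2 and Stmn3. The gene not called was Map2, at 3.17 times its testis FPKM and a log2 difference of 1.63 (1.56 to 1.71). It passed 4-fold with 2.34 when each library was scaled to its protein-coding FPKM, and its sign turned to -1.09 with the sum over all rows, of which protein-coding genes made up 345253 of 14084730 in brain. With that sum Nefh and Map1b also came below 4-fold, at 1.85 and 1.10, and 7 genes were called.

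Brain against liver called all 10 genes higher in brain, against 9.15% of all genes and 13.7% of protein-coding genes. Log2 differences ran from 5.01 for Nefh to 8.13 for Stmn3, with a median of 5.90 beside 0.01 over all genes. The median was 0.30 over protein-coding genes and 0.58 over genes at 1 FPKM or more in any library. The failed liver estimates of Ina and Mapt left wider ranges, 5.35 to 5.72 for Ina and 3.98 to 6.22 for Mapt, all past 4-fold. Without these, the other 8 genes were still called.

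Testis against liver called Map2 alone higher in testis, at 32.6 against 0.214 FPKM and a log2 difference of 4.79 (4.64 to 4.94). The background was 15.2% of all genes and 20.2% of protein-coding genes. The median log2 difference of the 10 genes was 0.16, beside 0.02 over all genes. It lay below the medians of 0.23 over protein-coding genes and 0.88 over genes at 1 FPKM or more in any library. For 6 genes the bounds of testis and liver were nevertheless apart, each with testis the higher: Nefl, Nefm, Nefh, Map1a, Map1b and Map2. Bounds were apart with testis the higher for 39.6% of all genes and 51.4% of protein-coding genes. Map1b, at 2.34 against 0.0411 FPKM, had a log2 difference of 1.68 (1.62 to 1.74), short of 4-fold on this scale. It was called with a pseudocount of 0.1 or 0.01, with a limit of 2-fold and with scaling to the FPKM sum. Nefh, at 0.868 against 0.0341 FPKM, was called with either smaller pseudocount.

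Restriction to brain was described by a level of at least 5 FPKM there and under 0.5 in both other organs. Nefl, Nefm, Ina, Map1a, Stmn2 and Stmn3 met it, 6 of the 10, where 2.31% of all genes and 2.90% of protein-coding genes did. The other 4 missed it through testis: Nefh at 0.868, Mapt at 0.972, Map1b at 2.34 and Map2 at 32.6 FPKM. The highest testis level among those inside was 0.146 FPKM, for Ina and Stmn2.

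The low testis and liver levels were set against those of neuron markers as a percentage of the brain level. In testis Nefl was at 0.0737% of brain, Stmn2 at 0.0840%, Nefm at 0.111%, Ina at 0.289% and Map1a at 0.324%. Of the neuron markers Snap25 was at 0.00926%, Syp at 0.0293%, Syt1 at 0.103%, Eno2 at 0.104%, Rbfox3 at 0.144% and the tubulin gene Tubb3 at 8.62%, with the testis estimate of Eno2 marked as low data. Mapt was at 1.38% of brain, Nefh at 2.68%, Map1b at 5.94% and Map2 at 31.6%. Over these 6 markers, Map2 alone lay above their range and Stmn3, listed at 0 in testis, below it. The other 8 genes lay within it, and Mapt, Nefh and Map1b did so through Tubb3 alone, as did Ina and Map1a. Peripheral neuron markers summed to 0.159 FPKM in testis and 0.00615 in liver over 4 genes, with Th and Dbh listed at 0 in liver. Schwann cell markers summed to 0.970 FPKM in testis and 0.0249 in liver. The part of nerve fibres in the organ in these levels was not tested. In liver the percentages ran from 0.00400% for the failed estimate of Ina to 0.518% for that of Mapt, and from 0.00482% for Nefl to 0.207% for Map2 among the rest. The neuron markers ran from 0.00375% for Snap25 to 0.323% for Syt1.

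**Figure D3:**
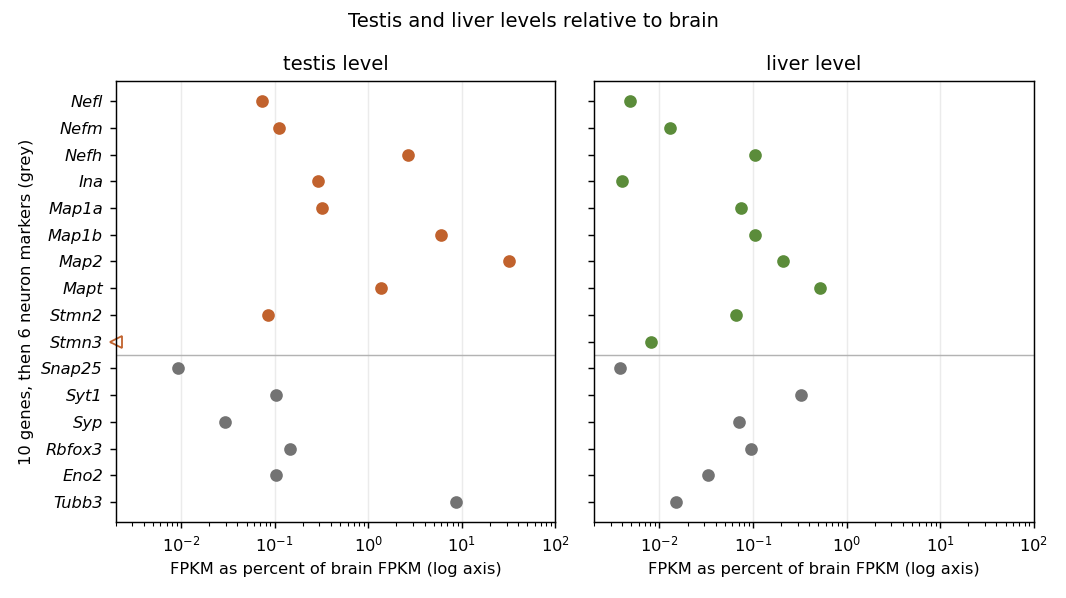
Testis FPKM (left) and liver FPKM (right) as a percentage of brain FPKM on a log axis, for the 10 genes (coloured) and 6 neuron markers (grey). The arrow marks Stmn3, listed at 0 in testis; Map2 at 31.6% and Map1b at 5.94% in testis lie farthest to the right among the 10 genes.

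Upstream sequence was looked at because the 10 genes were high together in brain. The RefSeq promoter table, on GRCm38.p6, held 5 of the 10 genes: Ina, Map1a, Map1b, Map2 and Stmn3. Each entry runs from 250 bases before the annotated transcript start to 50 after it. Motif matches are in capitals and the remaining bases in lower case, and all entries are written 5′ to 3′ on the strand of the gene. Ina lies at chr19:47014431-47014730 on the plus strand, Map1a at chr2:121289352-121289651 on the plus strand, Map1b at chr13:99516553-99516852 on the minus strand, Map2 at chr1:66175079-66175378 on the plus strand and Stmn3 at chr2:181314451-181314750 on the minus strand.
Ina: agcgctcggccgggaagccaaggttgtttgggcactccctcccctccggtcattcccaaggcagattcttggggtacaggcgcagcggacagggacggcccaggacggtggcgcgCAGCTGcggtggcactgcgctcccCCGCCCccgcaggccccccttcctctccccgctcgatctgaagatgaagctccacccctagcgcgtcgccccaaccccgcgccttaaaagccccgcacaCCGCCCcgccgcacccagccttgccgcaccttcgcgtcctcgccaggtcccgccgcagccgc
Map1a: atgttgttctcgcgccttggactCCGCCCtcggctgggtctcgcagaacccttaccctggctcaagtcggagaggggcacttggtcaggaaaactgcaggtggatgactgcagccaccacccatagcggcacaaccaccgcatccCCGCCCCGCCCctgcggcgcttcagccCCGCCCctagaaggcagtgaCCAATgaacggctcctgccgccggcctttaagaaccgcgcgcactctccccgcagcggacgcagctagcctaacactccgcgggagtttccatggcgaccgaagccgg
Map1b: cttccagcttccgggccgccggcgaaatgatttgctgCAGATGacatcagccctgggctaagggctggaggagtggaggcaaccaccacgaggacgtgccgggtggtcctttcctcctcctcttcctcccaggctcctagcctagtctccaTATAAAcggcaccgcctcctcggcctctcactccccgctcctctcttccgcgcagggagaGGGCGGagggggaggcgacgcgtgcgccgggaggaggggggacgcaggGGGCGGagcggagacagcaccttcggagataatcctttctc
Map2: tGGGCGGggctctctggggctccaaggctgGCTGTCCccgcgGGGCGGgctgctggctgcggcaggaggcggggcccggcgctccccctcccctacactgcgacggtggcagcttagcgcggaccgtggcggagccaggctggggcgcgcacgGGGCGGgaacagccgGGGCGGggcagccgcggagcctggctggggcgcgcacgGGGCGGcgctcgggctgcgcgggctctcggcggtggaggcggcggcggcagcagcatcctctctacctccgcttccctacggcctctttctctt
Stmn3: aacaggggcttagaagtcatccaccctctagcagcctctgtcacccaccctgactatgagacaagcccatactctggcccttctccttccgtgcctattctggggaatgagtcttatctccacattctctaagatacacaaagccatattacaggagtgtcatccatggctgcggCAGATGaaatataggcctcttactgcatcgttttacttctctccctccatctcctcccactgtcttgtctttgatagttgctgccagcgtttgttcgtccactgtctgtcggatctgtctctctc

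Base composition set Stmn3 apart from the other 4 promoters. Its window was 49.7% G and C with 6 CpG sites and an observed to expected CpG ratio of 0.348, near the medians of 52.7% and 0.384 over 32851 promoters. The windows of Ina, Map1a, Map1b and Map2 were between 65.7% and 77.7% G and C with 23 to 37 CpG sites, and their CpG ratios were 0.711 to 0.876. Motifs were searched on both strands. The GC box GGGCGG had 5 matches in Map2, 4 in Map1a, of which a pair overlaps by 1 base, and 2 each in Ina and Map1b. It was not found in Stmn3, and 35.7% of all promoters held it. A TATA box, TATAAA, was found in Map1b alone, 99 bases before the annotated start, and 13.6% of all promoters held it. The end of the Map1b window, unlike that of the other 4, was not found in a GENCODE transcript. Its start, and distances from it, are thus less certain. A CCAAT box was found in Map1a (37.4% of promoters), the E-box CAGCTG in Ina (16.3%) and the E-box CAGATG in Map1b and Stmn3 (17.2%). Of the half-sites of REST, the repressor of neuronal genes in other tissues, the left one, TTCAGCACC, was in none of the 5 windows (0.371% of promoters). The right one, GGACAGC, was in Map2 (6.56%). The cyclic AMP response element TGACGTCA was in none (1.79%). The windows of Map2, with a testis level of 32.6 FPKM, and of Map1a, with 0.130, thus shared several GC boxes.

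The genes differ widely in structure, taken by identifier from GENCODE M21. Stmn2 and Stmn3 have short coding sequences of 537 and 540 bases in 5 exons, and Map1a and Map1b long ones of 9042 and 7392 bases in 7 exons, beside a median of 1239 bases over protein-coding genes. The neurofilament genes have 3 or 4 exons, beside a median of 7. Map2 has 16 annotated coding transcripts and Mapt 8. The tables give gene-level values, so which Map2 transcripts the testis level came from was not measured.

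Positions in the tables are on mm9. The span of Nefl (chromosome 14, 68701920 to 68707152) lies wholly inside that of Nefm (68700647 to 68742903), and the genes are on opposite strands. Ina (chromosome 19, 47089188 to 47099817) overlaps the nucleotidase gene Nt5c2 by 492 bases and Map1a (chromosome 2, 121115336 to 121136568) overlaps Ppip5k1 by 272 bases, each on the other strand. Antisense genes overlap Map1a, Map2 and Mapt; they were listed at 0 in all libraries, except Gm14978 in Map1a, at 0.257 FPKM in testis. Small RNA genes also lie inside Map2 (Gm25411, at 8.86 FPKM in brain, against 1.72 in testis and 0 in liver) and Mapt (Gm22743, at 6.63, 12.9 and 0). The libraries are strand-specific, but whether strand was used in estimating FPKM is not given in the sources used here, so values of overlapping genes are less certain.

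Map2 spans 66221887 to 66489157 on chromosome 1, Map1b 100191419 to 100286557 on chromosome 13 and Mapt 104092704 to 104193404 on chromosome 11. Nefh lies at 4838757 to 4848067 on chromosome 11, Stmn2 at 8509527 to 8561604 on chromosome 3 and Stmn3 at 181041164 to 181049205 on chromosome 2. Of the 18 nearest protein-coding genes on either side, 4 were called higher in brain than in both other organs, where 5.27% of all genes and 7.58% of protein-coding genes were. These were Ckmt1 beside Map1a (236 FPKM in brain, 0.0648 in testis, 0.0462 in liver), the neuropeptide gene Cartpt beside Map1b (22.8, 0.0192, 0), Unc80 beside Map2 (16.0, 1.78, 0) and Hey1 beside Stmn2 (11.8, 2.13, 0.194). Next to Mapt, the protease-like gene Sppl2c was called lower in brain than in testis, at 0.00652 against 47.7 FPKM, while Mapt itself was 70.4 against 0.972. Neighbours of the neurofilament genes were low or broadly present, such as Dock5 beside Nefl and Nefm at 0.661 FPKM in brain, against 1.07 in testis and 0.744 in liver.

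Within the stathmin family, Stmn2 and Stmn3 differed from the founding member Stmn1, which encodes the cytosolic stathmin. Stmn1 was at 700 FPKM in brain, against 289 in testis and 6.74 in liver, and held 49.4%, 99.8% and 97.7% of the family's summed FPKM. Stmn4, a further membrane-anchored stathmin, was at 258 FPKM in brain, against 0.458 in testis and 0.0224 in liver, a pattern like that of Stmn3. Stmn2 and Stmn3 held 12.2% and 20.2% of the family sum in brain, against 0.0504% and 0% in testis.

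Among MAPs, Map4, the form present in most tissues, was at 76.1 FPKM in brain, against 52.3 in testis and 3.51 in liver. Map2 stood at 1.36 times Map4 in brain (1.31 to 1.41) and at 0.623 times in testis (0.569 to 0.683). Of the summed FPKM of the 4 MAP genes and Map4, Map2 held 31.4% in brain and 36.9% in testis, while Mapt held 21.4% and 1.10% and Map1a 12.1% and 0.147%. Map4 held 84.4% in liver.

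**Figure D4:**
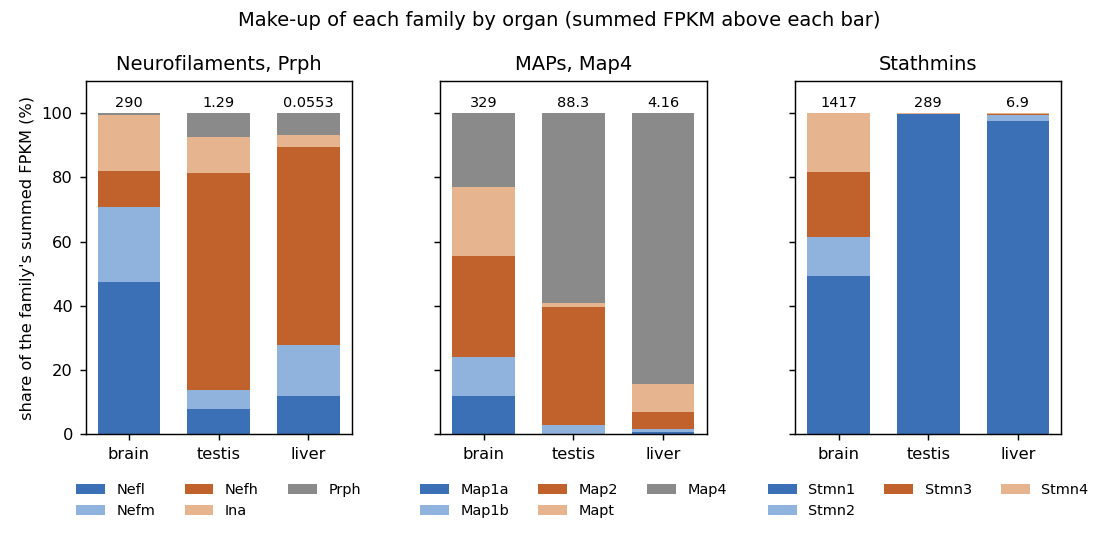
Share of each family's summed FPKM by gene in brain, testis and liver, as stacked bars from 0 to 100% with the sum in FPKM above each bar. Nefh takes 67.5% of the small neurofilament sum in testis and 61.6% of the smaller one in liver. In testis Map2 keeps 36.9% of the MAP sum, and Stmn1 takes 99.8% of the stathmin sum.

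Genes of related families and functions were described from 9 further lists, which matched 97 genes. Against testis 28 of them were called higher in brain and 9 lower, with a median of 0.54, and against liver 46 higher and 2 lower, with a median of 1.97. Beside the shares called higher given above, 11.0% of all genes and 14.2% of protein-coding genes were called lower in brain than in testis. Against liver 2.79% and 4.55% were lower. Of 18 other structural MAPs 10 were called higher in brain than in testis and 2 lower. The highest levels in brain were those of Map4, the doublecortin-like kinase gene Dclk1 (73.0 FPKM in brain, 0.671 in testis, 0.0169 in liver) and Map7d1 (66.2, 2.49, 7.58). Of these, Map4 was not called against testis. The 2 lower ones were Map7d3 and Map10, at 0.0400 and 1.08 FPKM in brain and 7.93 and 9.22 in testis. The brain estimate of Map7d3 and the liver estimates of Stmn4 and Dclk1 were marked as low data. Of 18 other intermediate filament genes 2 were called higher in brain than in testis, among them the astrocyte filament gene Gfap (55.3 FPKM in brain, 0.214 in testis, 0.0605 in liver). The broadly used filament genes Vim (22.8, 44.4, 10.6) and Lmna (16.5, 11.1, 12.6) were not called. Against liver 3 were higher and 2 lower. The lower ones were the epithelial keratin genes Krt18, at 2.77 FPKM in brain and 131 in liver, and Krt8, at 0.263 in brain and 43.5 in liver.

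Of 17 genes for kinases and phosphatase subunits that act on tau and neurofilaments, 5 were called higher in brain than in testis and 1 lower, and 12 higher than in liver. Highest in brain were the JNK gene Mapk10 (97.5 FPKM in brain, 21.4 in testis, 0.00886 in liver), Ppp2r2c (72.2, 0.240, 0.00158) and the Cdk5 activator gene Cdk5r1 (52.3, 1.30, 0.0949), with the liver estimate of Mapk10 marked as low data. Of 12 regulators of neuronal genes and their RNA, 4 were called higher in brain than in testis and 7 than in liver. They included Elavl3 (25.9, 0.50, 0.00127), a neuronal RNA-binding protein, while Tardbp, which in human neurons protects the splicing of STMN2, was at 49.8 FPKM in brain, against 64.1 in testis and 42.2 in liver and was not called. Its brain estimate was marked as failed and its testis estimate as low data. Rest was at 0.498 FPKM in brain, against 1.5 in testis and 1.49 in liver, and was not called in either comparison.

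**Figure D5:**
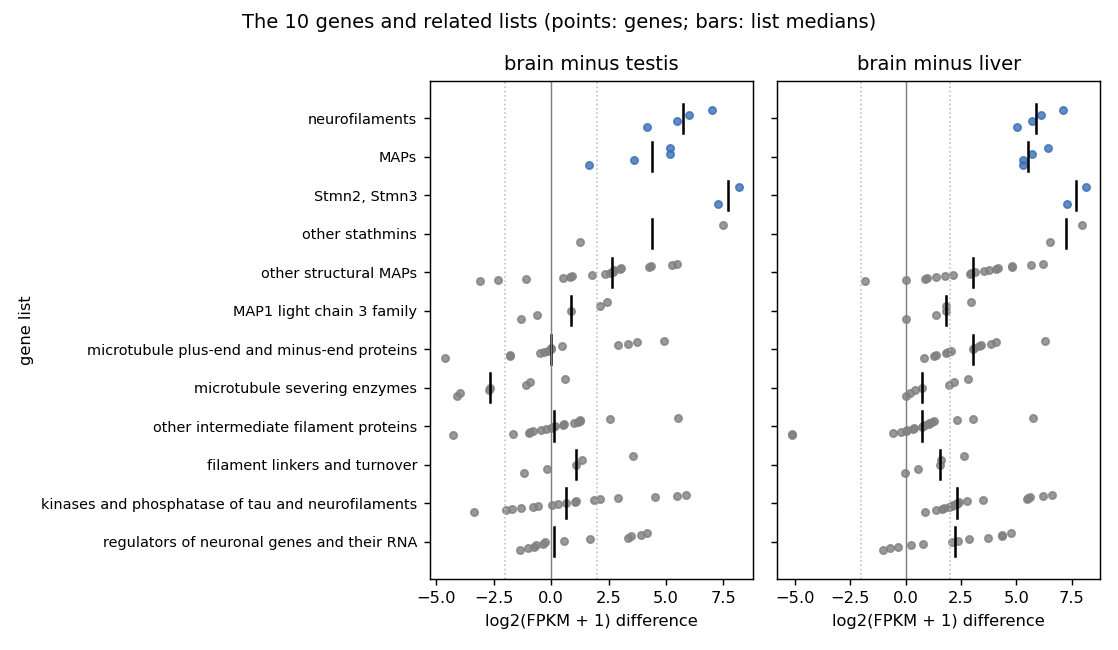
Difference in log2(FPKM + 1), brain minus testis (left) and brain minus liver (right), for the 10 genes (blue) and 9 related lists (grey); each point is a gene, black bars are list medians and dotted lines mark 4-fold. Map2 is the one blue point inside the dotted lines, at 1.63 against testis.

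The protein-coding genes with the most similar levels over the 3 libraries were found by Euclidean distance on log2(FPKM + 1) from the median of each class. For the neurofilament genes these were Nnat (60.0 FPKM in brain, 0.154 in testis, 0 in liver), Cend1 (56.5, 0.0853, 0.0247) and Rph3a (58.6, 0.211, 0), at distances of 0.0517 to 0.109. For the MAP genes they were Cdk5r1, Epb41l1 (47.4, 1.48, 0.177) and Serpini1 (47.0, 1.45, 0.119), at 0.162 to 0.184. For Stmn2 and Stmn3 they were Ckmt1, Eno2 (219, 0.229, 0.0732) and the brain tubulin gene Tubb4a (194, 0.00631, 0.0486), at 0.0899 to 0.219. With 3 libraries such likeness is a description of level only.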

How the data were processed

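The authors deposited 1 table per organ with FPKM per gene, per the file headers, beside lower and upper confidence bounds and a status for each estimate. Tools named by the submitters' processing notes are Cufflinks 2.0.0, TopHat 1.4.0 and Bowtie 0.12.5, on build mm9; the sources used here give neither annotation nor filters. The tables held 36824 rows for brain and testis and 36823 for liver, and 305, 390 and 327 estimates were marked as failed.

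Identifiers found in every table were kept, 12 at more than 1 locus were summed, and symbols, gene classes, strands and structures came from GENCODE M21 by identifier. The table starts were raised by 1, after which 37 of 37 mitochondrial genes had the reference coordinates. The 10 genes and the lists were chosen with earlier results of these data known, and 2 of 143 list entries had no match. Each list gave the 3 highest genes in brain and those called lower there.

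The tables hold no counts, and the headers name no level for the bounds, which were taken as 2 standard errors either way. Fragments behind a value were approximated by dividing FPKM by 0.5 of its upper half-width and squaring. Between 0.5 and 20 such fragments, 69.6% of values in brain, 69.6% in testis and 69.7% in liver were whole within 0.1, so these are approximate; they summed to 31.8, 40.9 and 86.3 M. Ranges of ratios and log2 differences combine opposite bounds. Python 3.11.15, NumPy 2.4.6, pandas 2.3.3 and matplotlib 3.10.9 were used, and the call rule was tested on simulated data. The simulated differences were 8-fold, past the 4-fold limit, and were placed in well-covered genes only. They thus do not bear on genes at low levels or on the spread between animals. Alternatives were pseudocounts of 0.1 and 0.01, scaling of the libraries by protein-coding FPKM, by the median gene ratio or by the FPKM of all rows, estimates marked OK only, calls without the bounds, limits of 2-fold and 8-fold, and genes at 1 FPKM or more in either library.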

Additional observations from a re-analysis of the deposited data

How the results depend on the processing

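No paired analysis was possible because each organ has 1 library. All 10 genes stayed higher in brain than in liver under every alternative run, and 8 of 8 where failed estimates were left out. Against testis 7 to 10 genes were called higher in brain, and 6 were restricted to brain under each scaling. Testis over liver called 1 gene, but 3 with a pseudocount of 0.1, 5 with 0.01, and 2 with scaling to the FPKM sum or a 2-fold limit. The median log2 differences of the 10 genes (brain over testis 5.34, brain over liver 5.90, testis over liver 0.16) became 7.57, 8.66 and 1.06 with a pseudocount of 0.1 and 8.25, 10.22 and 2.47 with 0.01. Brain over testis and brain over liver became 5.90 and 6.45 with the protein-coding sum, 5.15 and 5.63 with the median ratio, and 3.26 and 3.88 with the FPKM sum. With estimates marked OK only, brain over liver was 6.26, over 8 genes. Over genes at 1 FPKM in any library these scalings moved the all-gene median by 0.49 and 0.62, by -0.01 and -0.44, and by -1.90 and -1.66, in that order. Of 176 other values of single genes under alternatives, 122 moved beyond their bounds and 0 of those called changed sign. The share of all genes called higher ranged from 1.54% to 13.9% for brain over testis, 2.53% to 21.5% for brain over liver and 9.45% to 28.4% for testis over liver, leaving aside the limit to genes at 1 FPKM or more, which tests fewer genes. The lowest values are imprecise. For Nefl, Nefm, Nefh and Stmn3 in liver the bounds were as wide as those of 3.43, 4.75, 5.67 and 2.86 fragments. For Stmn2 in testis they were as wide as those of 5.46.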

Other observations

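Genes for proteins that cut microtubules or bind their ends were looked at apart from the 10 genes. Of 7 severing enzyme genes 4 were called lower in brain than in testis and none higher, among them the katanin-like genes Katnal1 (17.9 FPKM in brain, 122 in testis, 1.70 in liver) and Katnal2 (2.94, 66.4, 0.00401) and Fignl1 (0.203, 18.0, 0.0572). The brain and liver estimates of Fignl1 were marked as low data, with bounds of 0 to 6.62 FPKM in brain and 15.2 to 20.7 in testis. Over all genes 11.0% were called lower in brain than in testis, and over protein-coding genes 14.2%. Spast was at 9.32, 20.9 and 5.13 FPKM in the same order and Katna1 at 6.29, 12.6 and 6.19, neither called. Of 13 plus-end and minus-end protein genes 4 were called higher in brain than in testis, among them Clip3 (86.0, 1.93, 0.108) and Mapre2 (38.7, 2.86, 2.94). Clip4 was lower in brain, at 8.19 FPKM in brain, against 228 in testis and 0.0840 in liver, and Mapre3, at 118, 147 and 10.2 FPKM, was not called between brain and testis. The tau tubulin kinase gene Ttbk2 was lower in brain than in testis, at 5.35 against 64.3 FPKM, as was the lamin gene Lmnb2, at 3.31 against 82.4.

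The light chain 3 family, which takes part in autophagy and shares its name with the light chain of MAP1, was present in all organs. Gabarap was at 108 FPKM in brain, against 270 in testis and 107 in liver, Gabarapl1 at 103, 55.5 and 38.8, and Map1lc3b at 101, 22.6 and 28.3. Of these 5 genes 2 were called higher in brain than in testis and 1 than in liver. None of 5 genes for filament linkers and turnover was called in either comparison, with Macf1 at 29.2, 11.1 and 9.04 FPKM, Trim2 at 20.5, 0.799 and 2.44 and Dst at 13.3, 5.83 and 3.92. The estimates of Macf1 in testis and liver and of Trim2 in brain and liver were marked as failed, and that of Trim2 in testis as low data.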
